A study of Mus musculus with 4 samples.

Results

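Pax2, Pax8, Lhx1, Pou3f3 and Cdh6 are 5 genes of renal vesicle formation, the step at which nephron progenitors become the first epithelium of the nephron. They were chosen by name out of 21883 protein-coding genes, and every WT1 peak with its midpoint inside the gene or within 100 kb of it was collected. WT1 occupancy had been mapped by chromatin immunoprecipitation and sequencing (ChIP-seq) in kidneys dissected from wild-type mouse embryos of mixed background (C57Bl6 crossed with B6DBA/F1) at E18.5. There were 2 samples with the WT1 antibody C-19, called replicates 1 and 2, and 2 with IgG, which were not analysed here. The labels do not say how many embryos were pooled for a sample. With 2 samples of 1 group no test between groups was possible, and the values below describe these samples. The tissue is the whole kidney, and peak lists hold no expression, so neither its cell types nor the cell in which a site was bound could be checked.

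WT1 is a zinc-finger transcription factor that is present in nephron progenitors at a low level, rises in the renal vesicle and stays on in podocytes. Pax2 and Pax8 encode related paired-domain transcription factors that act together in forming the nephric lineage. Lhx1, a LIM-homeodomain factor, is needed for the vesicle to develop further, Pou3f3, a POU-domain factor also known as Brn1, acts in its distal part, and Cdh6 encodes a type II cadherin of the cells that will form the proximal tubule. Wnt4 and Fgf8 are the signals best known for driving the change from mesenchyme to vesicle, and Notch signalling acts in the vesicle soon afterwards.

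Each deposited peak carries the authors' significance value, a p-value or q-value below 0.05. Each region of the deposited overlap table, which was found in both replicates, carries an irreproducible discovery rate (IDR), the expected share of regions at least that good that would not repeat. A region counts as reproducible up to an IDR of 0.05. The lists held 53132 peaks for replicate 1 and 57641 for replicate 2, and 4411 of the 17234 overlap regions (25.6%) were reproducible. Read depth is unknown.

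WT1 regions were numerous at Pax2 and Pax8. Reproducible regions lay inside or within 100 kb of 2 of the 5 genes, Pax2 with 3 and Pax8 with 6, and none lay there at Lhx1, Pou3f3 or Cdh6. Over all protein-coding genes 38.1% had at least 1 such region, so 2 of 5 is near the background. The number at Pax8 was less common, since 0.548% of genes had at least as many as its 6 regions, and 6.58% had at least as many as the 3 of Pax2. Of the 6 regions of Pax8, 2 nearly adjoined, so its count would be smaller if they were taken as 1 site. Per Mb of window this came to 23.5 reproducible regions for Pax8 and 10.3 for Pax2, against a mean of 2.73 over all genes. Counting every overlap region, Pax8 had 14 and Pax2 9, Cdh6 had 3, Lhx1 had 2 and Pou3f3 had 0, beside a median of 2 over all genes. The windows also hold other genes, and with only regions held by or nearest to the member itself 2 remained for Pax2 and 3 for Pax8. No share of all genes is given for this rule. The regions it leaves out for Pax8 include the 2 with the lowest IDR, 7.32e-06 and 1.82e-05.

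**Figure D1:**
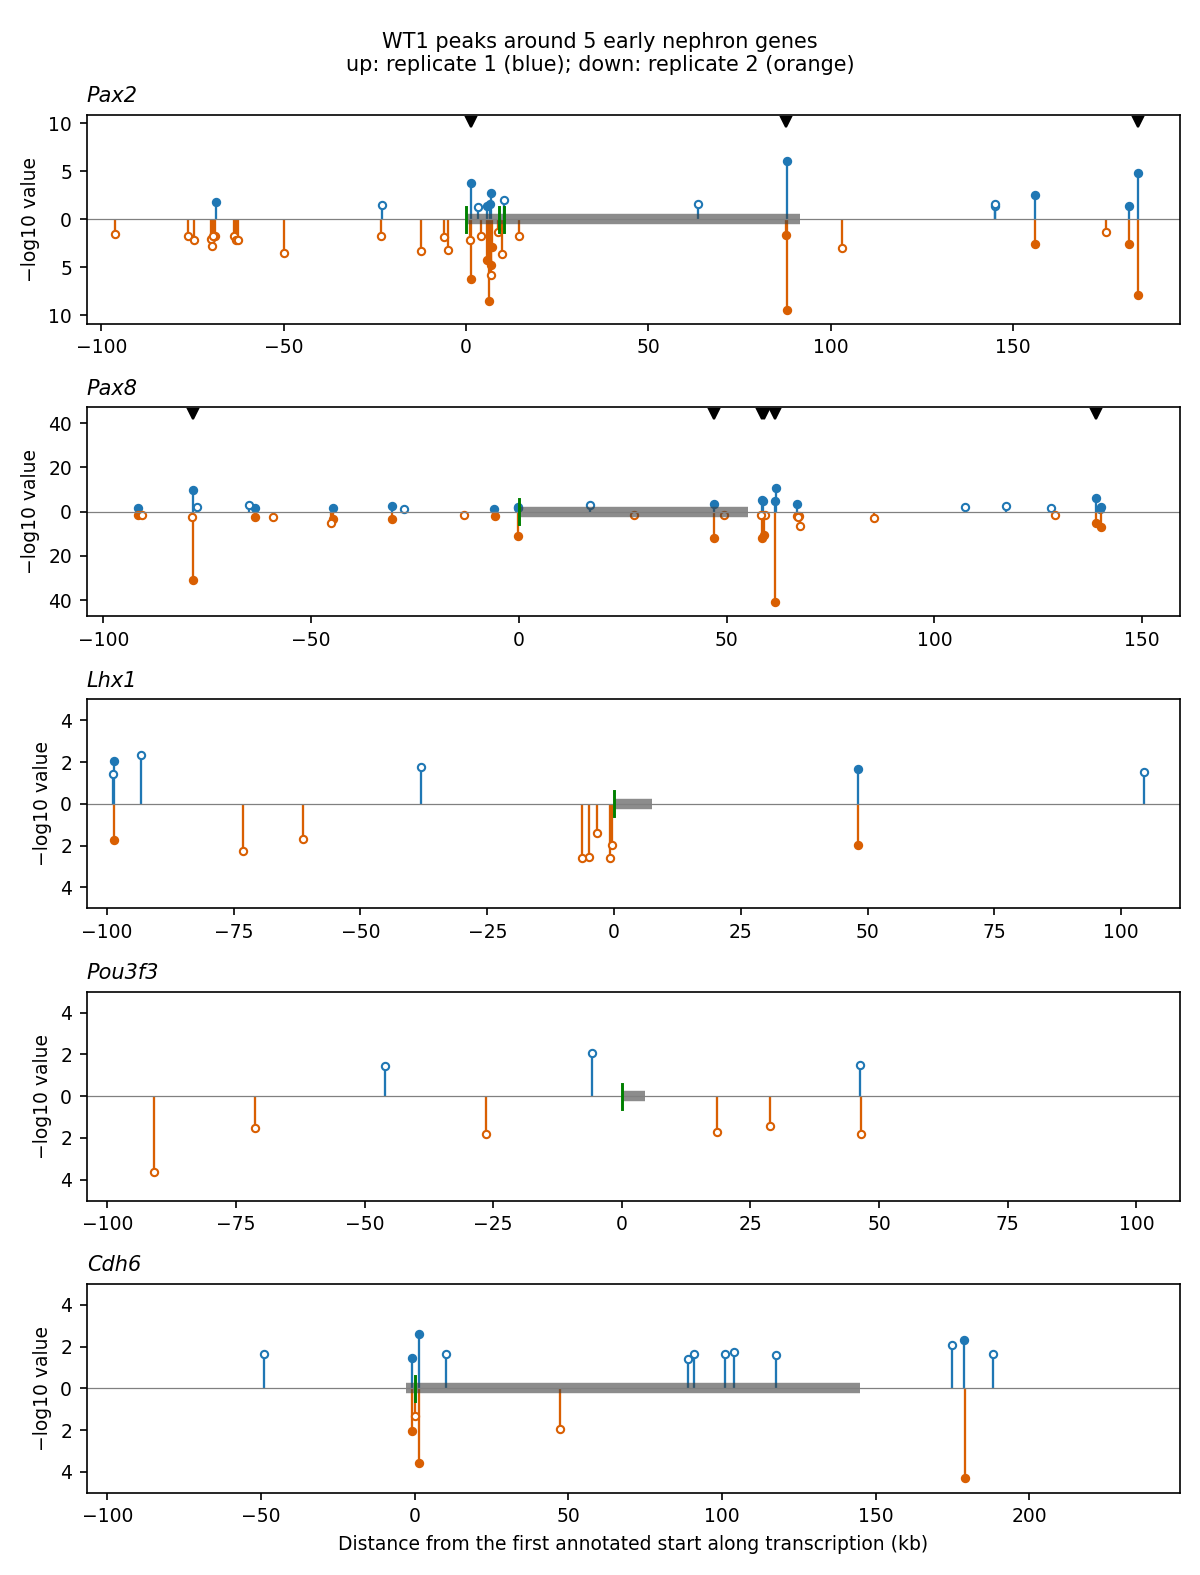
Peaks around each gene by distance from its first annotated start along transcription (kb), with replicate 1 above and replicate 2 below the line as −log10 of the significance value. Filled points overlap a peak of the other replicate, black triangles mark reproducible regions, the grey bar is the gene and green ticks are annotated starts. The vertical scale is not the same for all genes. Values reach past 40 for Pax8 in replicate 2 and stay under 4 for Lhx1 and Pou3f3.

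The starts of these genes themselves were mostly not covered. The RefSeq promoter table (GRCm38.p6, the assembly behind mm10) matched all 5 genes with 7 starts, and the window from 250 bases before to 50 bases after a start overlapped an overlap region at 1 of them, that of Pax8, and a reproducible region at 0. Among all such windows of protein-coding genes 5.63% overlapped an overlap region and 2.41% a reproducible one. The 250 bases before the start are shown for Pax8, whose promoter carried WT1 signal in both replicates, for the first start of Pax2, whose nearest region began 1266 bp beyond it, and for Pou3f3, which had no overlap region at all. Capitals mark the part of the Pax8 promoter inside the overlap region, and in Pou3f3 a match to GTGGGNG, the core of the motif bound by WT1 and EGR proteins. All 3 are written 5′ to 3′ along the gene.
Pax8, chr2:24475600-24475849, minus strand: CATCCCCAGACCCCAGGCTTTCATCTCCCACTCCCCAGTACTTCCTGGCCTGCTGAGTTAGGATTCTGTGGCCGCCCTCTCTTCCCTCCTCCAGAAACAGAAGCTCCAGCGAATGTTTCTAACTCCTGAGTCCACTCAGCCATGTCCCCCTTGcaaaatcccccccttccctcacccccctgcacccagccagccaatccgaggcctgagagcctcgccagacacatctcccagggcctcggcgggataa
Pax2, chr19:44746351-44746600, plus strand: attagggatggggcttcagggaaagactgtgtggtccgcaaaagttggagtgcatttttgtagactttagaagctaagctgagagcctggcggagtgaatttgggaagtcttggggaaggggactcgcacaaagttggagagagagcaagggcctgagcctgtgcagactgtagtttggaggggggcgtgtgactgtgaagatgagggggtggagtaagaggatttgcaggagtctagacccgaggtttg
Pou3f3, chr1:42695518-42695767, plus strand: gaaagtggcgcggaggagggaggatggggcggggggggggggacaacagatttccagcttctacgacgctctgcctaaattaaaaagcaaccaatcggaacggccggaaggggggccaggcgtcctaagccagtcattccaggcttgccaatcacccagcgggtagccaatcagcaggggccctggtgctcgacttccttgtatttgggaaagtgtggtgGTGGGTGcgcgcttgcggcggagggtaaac

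Of the Pax8 bases shown, 153 lay in the region. A search on both strands for GTGGGNG found 1 match in each of the promoters of Pax8, Pou3f3 and Cdh6, and none in those of Pax2 and Lhx1. The Pax8 match lay at -226 to -220 from the start, within the capitals, and was read on the opposite strand. The Pou3f3 match lay at -30 to -24, and that of Cdh6 at -28 to -22. Of all 21237 promoters of that length 30.2% held this core. Neither the longer form GCGTGGGNG, which contains the core and was found in 2.10% of promoters, nor the repeat TCCTCCTCC, found in 2.60%, had a match in the 7 promoters. These matches describe letters and are not binding sites.

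Pax8 (chromosome 2, 24420551 to 24475599, minus strand) carried the strongest regions of the 5 genes, and they lay at a distance from its start. The best by IDR was 78.3 kb upstream (24553759 to 24554121, IDR 7.32e-06), with significance values of 2.08e-10 in replicate 1 and 8.73e-32 in replicate 2. It ranked in the top 3.31% of all overlap regions. It lay in the long noncoding gene Gm39769, and the nearest end of a protein-coding gene was that of Cacna1b, a calcium channel gene, 49.9 kb away. The nearest start of a protein-coding gene was that of Pax8.

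Downstream of the Pax8 3′ end, 3 reproducible regions stood within 3.88 kb of each other (24413414 to 24417291). The farthest from the gene, 6.70 kb past its end, was also the strongest of the 3 at an IDR of 1.82e-05. Its values were 1.39e-11 in replicate 1, where a second peak at 1.51e-05 adjoined it, and 9.01e-42 in replicate 2, and at 875 bp it was the widest region at any of the 5 genes. That region was 3.98 kb from Psd4, which encodes an exchange factor for ARF6, and so nearer to it than to Pax8. The other pair nearly adjoined, the first ending at 24416907 and the second beginning at 24416917. They lay 3.83 and 3.45 kb past Pax8 and had Pax8 as the gene with the nearest end. Their nearest protein-coding start was that of Psd4. The first of them (IDR 0.00208) had values of 1.51e-05 and 2.40e-11 in replicates 1 and 2, and the second (IDR 0.00387) had 6.84e-06 and 1.73e-12. All 3 were called in both replicates and had the smaller value in replicate 2. Among all reproducible regions 18.8% had another within 5 kb.

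Inside Pax8 there was 1 reproducible region, 8.14 kb from the 3′ end and 46.9 kb along the gene from its start (24428402 to 24428980, IDR 0.0205). Replicate 1 gave it 3.94e-04 and replicate 2 gave it 1.15e-12. Over all protein-coding genes 7.94% held a reproducible region inside the gene. Whether it is exonic or intronic was not determined, since only gene extents were used here. The sixth reproducible region lay 83.8 kb downstream (24336452 to 24337071, IDR 0.0193; 8.75e-07 and 5.04e-06) and spanned the first start of Il1rn, the interleukin-1 receptor antagonist. It was the only one of the 9 reproducible regions with the smaller value in replicate 1.

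The Pax8 promoter region illustrates how the replicates differed. It began 98 bp upstream of the start (24475697 to 24476058) and did not pass, at an IDR of 0.235. In replicate 2 the promoter peak had a value of 1.03e-11, in the top 4.51% of that list. In replicate 1 there were 2 short peaks in its place, at 0.00531 and 0.0227, the better of them in the top 19.7%. A strong peak in replicate 2 thus met a weak pair in replicate 1. The other 7 overlap regions of Pax8 that did not pass had IDR values from 0.0894 to 0.541. The lowest of these lay 30.6 kb upstream (24506087 to 24506315), with 0.00196 and 6.84e-04 in replicates 1 and 2.

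Pax2 (chromosome 19, 44746601 to 44838269, plus strand) had weaker but more often intragenic regions. Inside the gene lay 5 of its 9 overlap regions, against 1 of 14 for Pax8. Reproducible among these were 2 for Pax2 and 1 for Pax8. The gene body filled 91.7 of the 292 kb window of Pax2 and 55.0 of the 255 kb window of Pax8. It has 3 annotated starts, at 44746601, 44755752 and 44756906. Between the first and the second start 4 overlap regions lay within 5.85 kb (44747867 to 44753714). The one nearest the first start, 1.38 kb past it, was reproducible (44747867 to 44748093, IDR 0.0180). It had values of 1.72e-04 in replicate 1 and 5.94e-07 in replicate 2, and its edges were the same base in both. The last of the group (44753440 to 44753714), 2.17 kb before the second start, missed at an IDR of 0.0746, with 0.00190 in replicate 1 and adjoining peaks of 1.61e-05 and 0.00115 in replicate 2.

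The middle pair of that Pax2 group ranked far higher in replicate 2 than in replicate 1. The region at 44752701 to 44753176 had a value of 3.11e-09 in replicate 2, in the top 5.99% of that list, and 0.0267 in replicate 1, in the top 58.6%, and its IDR was 0.478. The region at 44752397 to 44752574 had 5.68e-05 in replicate 2 (top 12.9%) and 0.0371 in replicate 1 (top 73.3%), and an IDR of 0.417. A further peak of replicate 2 between them and the last region (44753305 to 44753374, 1.42e-06) had no counterpart in replicate 1. It was the best unshared peak of replicate 2 in the Pax2 window, and it stood 65 bp from the nearest peak of replicate 1.

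The reproducible region with the lowest IDR inside Pax2 lay near its 3′ end, 87.8 kb from the first start and 3.84 kb from the end (44834055 to 44834797, IDR 0.0139). Replicate 1 had a single peak of 7.60e-07 there, and replicate 2 had peaks of 3.39e-10 and 0.0248. The long noncoding gene 1700039E22Rik covers the same bases. The third reproducible region in the Pax2 window (44930710 to 44930910, IDR 0.00501; 1.68e-05 and 1.38e-08) lay 92.5 kb downstream and inside Slf2, which encodes a factor that recruits the SMC5/6 complex to DNA damage. Its nearest gene end was that of Slf2, 12.3 kb away.

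The side of Pax2 before its first start differed between the replicates. Replicate 2 had 15 peaks in those 100 kb, of which 1 overlapped a peak of replicate 1, and replicate 1 had 2 peaks there. Over the whole list 30.8% of replicate 2 peaks overlapped one of replicate 1, so most were unshared elsewhere too. The best of the 15 had a value of 3.43e-04, and none was in the top 10% of that list. The only shared one, 68.7 kb upstream, had an IDR of 0.392. Over the whole window Pax2 had 15 peaks of replicate 1 and 33 of replicate 2, while Pax8 had 24 and 28.

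Lhx1 (chromosome 11, 84517975 to 84525534, minus strand) had no overlap region inside the gene and 2 within 100 kb. The region 40.5 kb downstream (84477343 to 84477538) lay inside Aatf, with values of 0.0215 and 0.0112 in replicates 1 and 2 and an IDR of 0.418. The region 98.6 kb upstream (84623993 to 84624291), just within the distance used, had 0.00845 and 0.0188 and an IDR of 0.347. By IDR they stood only in the top 74.7% and 63.8% of the overlap table. Any overlap region was present for 71.6% of protein-coding genes.

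Near the Lhx1 start only replicate 2 had peaks. In the divergent noncoding gene Lhx1os, which begins next to Lhx1, replicate 2 had 5 peaks between 84525860 and 84531846, with values from 0.00254 to 0.0391, and replicate 1 had 0. The first of them stood 326 bp from the Lhx1 start, and the nearest peak of replicate 1 stood 37902 bp from it. None of these 5 peaks was in the top 10% of its list. All of them lay outside the promoter window of Lhx1. Across all promoter windows of protein-coding genes 11.0% overlapped a peak of replicate 2 and 6.21% a peak of replicate 1. Of the whole replicate 2 list only 30.8% overlapped a peak of replicate 1.

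Just beyond the 100 kb limit, Lhx1 and Pax2 each had strong regions. Upstream of Lhx1, at 134 kb, lay a region with an IDR of 4.66e-07 (84659491 to 84659882), in the top 0.598% of the overlap table. Its values were 4.89e-30 in replicate 1 and 3.14e-70 in replicate 2, smaller than those of any region within 100 kb of the 5 genes. A second stood next to it at 135 kb (84660707 to 84661163, IDR 0.00211). Lhx1 was the protein-coding gene with the nearest end to both. For Pax2 the first region beyond the limit was 102 kb upstream (44644179 to 44644669, IDR 4.29e-06; 8.92e-18 and 1.10e-29), and Hif1an, at 68.2 kb, was closer to it. With a distance of 150 kb, chosen after these regions were seen, 3 of the 5 genes had a reproducible region, against 47.0% of all protein-coding genes.

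Pou3f3 (chromosome 1, 42695768 to 42700210, plus strand) had no region found in both replicates. Replicate 1 had 3 peaks within 100 kb, the best at 0.00824 (42689940 to 42690075), 5693 bp before the start. Replicate 2 had 6, the best at 2.36e-04, 90.9 kb upstream (42604743 to 42605054). No peak of either replicate fell inside the gene. The closest approach of the replicates was 46.3 kb past the start, where a peak of replicate 1 (0.0314) and one of replicate 2 (0.0156) were separated by 148 bp. The nearest overlap region was 171 kb away at an IDR of 0.219, and the nearest reproducible one, inside Tgfbrap1, was 378 kb away. At least 1 peak was within 100 kb of 92.5% of protein-coding genes in replicate 1 and of 89.8% in replicate 2.

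Cdh6 (chromosome 15, 13028699 to 13176407, minus strand) came closest to the threshold without passing it. The region at 13172028 to 13172269, 1.53 kb past its start at 13173675, had an IDR of 0.0612, with 0.00261 in replicate 1 and 2.57e-04 in replicate 2. The region at 12994575 to 12994879, 34.0 kb past the 3′ end, had an IDR of 0.0869, with 0.00473 and 5.23e-05. The third (13174415 to 13174534, IDR 0.397; 0.0371 and 0.00886) had the same edges in both replicates. It lay 740 bp before the annotated start at 13173675 but still inside the gene, 1.93 kb from its end at 13176407. The first and the last of these regions stood on either side of the annotated start, and a weak peak of replicate 2 alone (13173515 to 13173692, 0.0469) lay across it. At an IDR of 0.1 Cdh6 had 2 reproducible regions, the one past the start and the one past the 3′ end. Inside the long gene body replicate 1 had 8 peaks and replicate 2 had 4, of which 2 in each overlapped.

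**Figure D2:**
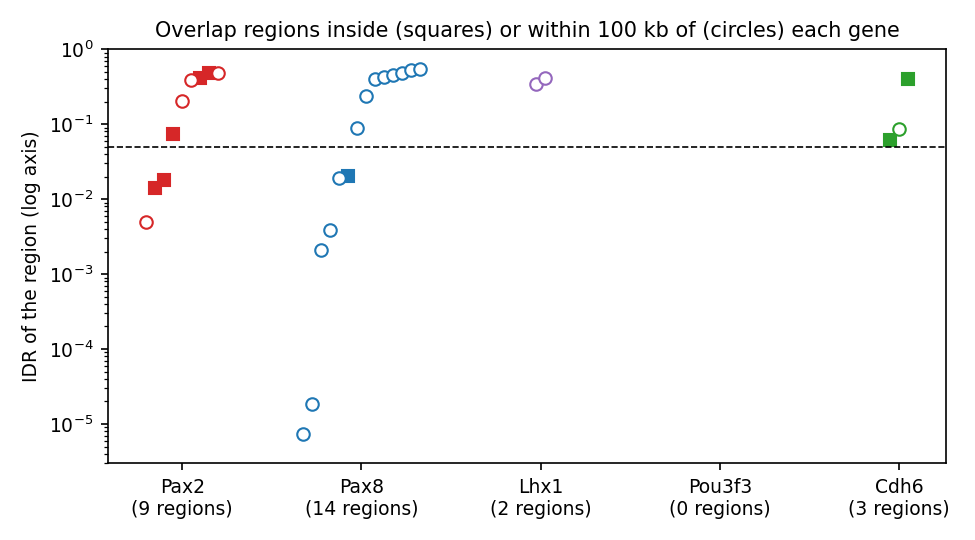
IDR (log axis) of the 28 overlap regions at the 5 genes, ordered from low to high within a gene, with squares inside the gene and circles within 100 kb of it. The dashed line is 0.05. Pax8 reaches 7.32e-06 and Pax2 0.00501, the lowest of Cdh6 is 0.0612 and of Lhx1 0.347, and Pou3f3 has none.

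The order of the genes by their best peak was the same in the replicates except for Lhx1 and Pou3f3. In replicate 1 the best values were 1.39e-11 for Pax8, 7.60e-07 for Pax2, 0.00261 for Cdh6, 0.00450 for Lhx1 and 0.00824 for Pou3f3. In replicate 2 they were 9.01e-42, 3.39e-10, 5.23e-05, 0.00254 and 2.36e-04 in that order of genes, so Pou3f3 stood ahead of Lhx1. Single values per gene and sample give no spread, and Cdh6, Lhx1 and Pou3f3 cannot be ranked beyond that.

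Together the 5 windows held 28 overlap regions, 60 peaks of replicate 1 and 81 of replicate 2. Of the 28 regions 9 were reproducible (32.1%, exact Clopper-Pearson 95% interval 15.9 to 52.4), against 25.6% of the whole table. Of the replicate 1 peaks 51.7% (38.4 to 64.8) overlapped a peak of replicate 2, against 34.1% of its whole list. Of the replicate 2 peaks 37.0% (26.6 to 48.5) overlapped one of replicate 1, against 30.8%. Peaks of 1 window are not independent, so these intervals cover counting error only. By gene, the shared part in replicate 1 was 17 of 24 peaks for Pax8, 9 of 15 for Pax2, 3 of 12 for Cdh6, 2 of 6 for Lhx1 and 0 of 3 for Pou3f3. In replicate 2 it was 14 of 28, 11 of 33, 3 of 5, 2 of 9 and 0 of 6 for the same genes. For Pax8 these are 70.8% (48.9 to 87.4) and 50% (30.6 to 69.4) in replicates 1 and 2, and for Pax2 60.0% (32.3 to 83.7) and 33.3% (18.0 to 51.8). Of these intervals that of Pax8 in replicate 1 lay above the share of the whole list and the other three included it.

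**Figure D3:**
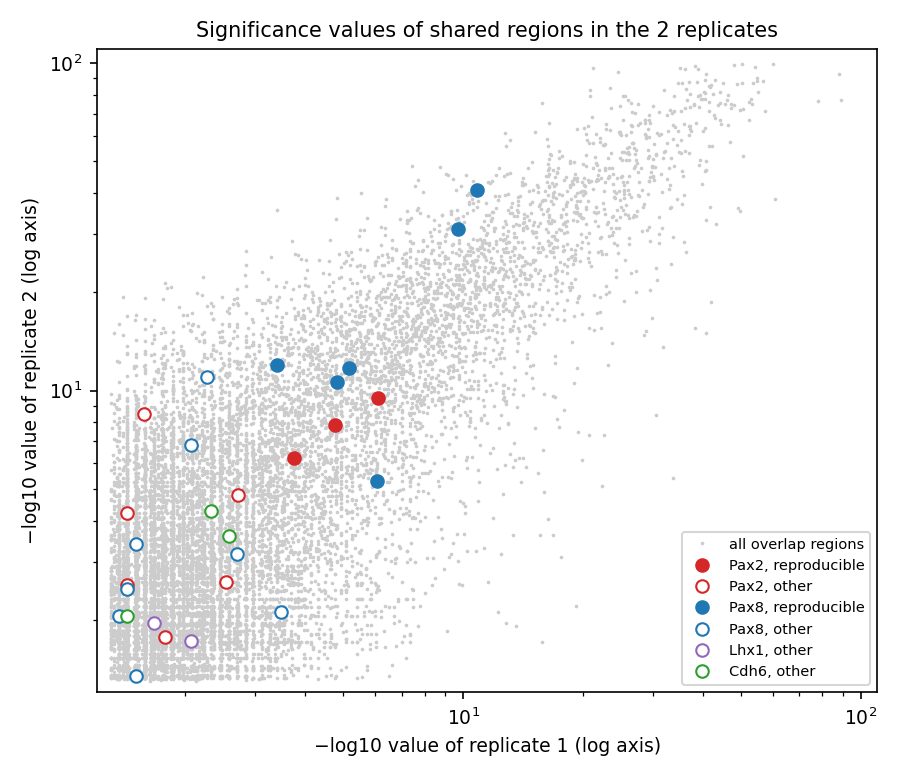
Significance values of replicate 1 (x) and replicate 2 (y) for each overlap region, as −log10 on log axes, in grey for all regions with values above 0 and in colour for those at the 5 genes (filled if reproducible). Most coloured points lie above the equal-value diagonal, and the 2 farthest to the upper right are the regions 78.3 kb upstream and 6.70 kb downstream of Pax8.

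Replicate 2 gave the smaller value at 23 of the 28 regions and at 8 of the 9 reproducible ones, and over the whole table it did so at 75.4% of all and 90.3% of reproducible regions. By rank within a list 16 of the 28 regions stood higher in replicate 2, and no such share of the whole table is given here. Region edges were shared bases in a part of the cases, the lower edge at 9 and the higher edge at 7 of the 28 regions, against 39.6% and 39.5% of all overlap regions.

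Within the Pax family Pax8 and Pax2 came first by number, with 14 and 9 overlap regions, and no other Pax gene had more than 4. By the best IDR the order was different: Pax7, a muscle stem cell factor with 2 reproducible regions, stood at 4.11e-06, ahead of Pax8 at 7.32e-06, and Pax5, a B cell factor with 1, stood at 2.06e-04, ahead of Pax2 at 0.00501. Pax1 and Pax4 had no overlap region. Reproducible regions lay within 100 kb of 2 of the other 7 Pax genes and 3 of the other 7 Lhx genes. They lay there at 2 of the other 3 Pou3f genes and 3 of the other 12 type II cadherin genes. Each is to be read against 38.1% of all protein-coding genes. Of the LIM homeobox genes only those named Lhx were listed. The best of the listed Lhx genes were Lhx3 (IDR 7.07e-07, 4 reproducible regions), Lhx5 (0.0209), Lhx9 (0.0410) and Lhx2 (0.148). Lhx1 itself stood at 0.347. Pou3f2 (8.24e-06) and Pou3f1 (0.00120) had 1 each, and Pou3f4, like Pou3f3, had no overlap region. Among the cadherins Cdh22 had 5 (best 1.09e-06), Cdh24 had 3 (9.98e-05) and Cdh10 had 1 (0.0214), Cdh6 came next at 0.0612, and Cdh8, Cdh9, Cdh19 and Cdh20 had no overlap region.

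**Figure D4:**
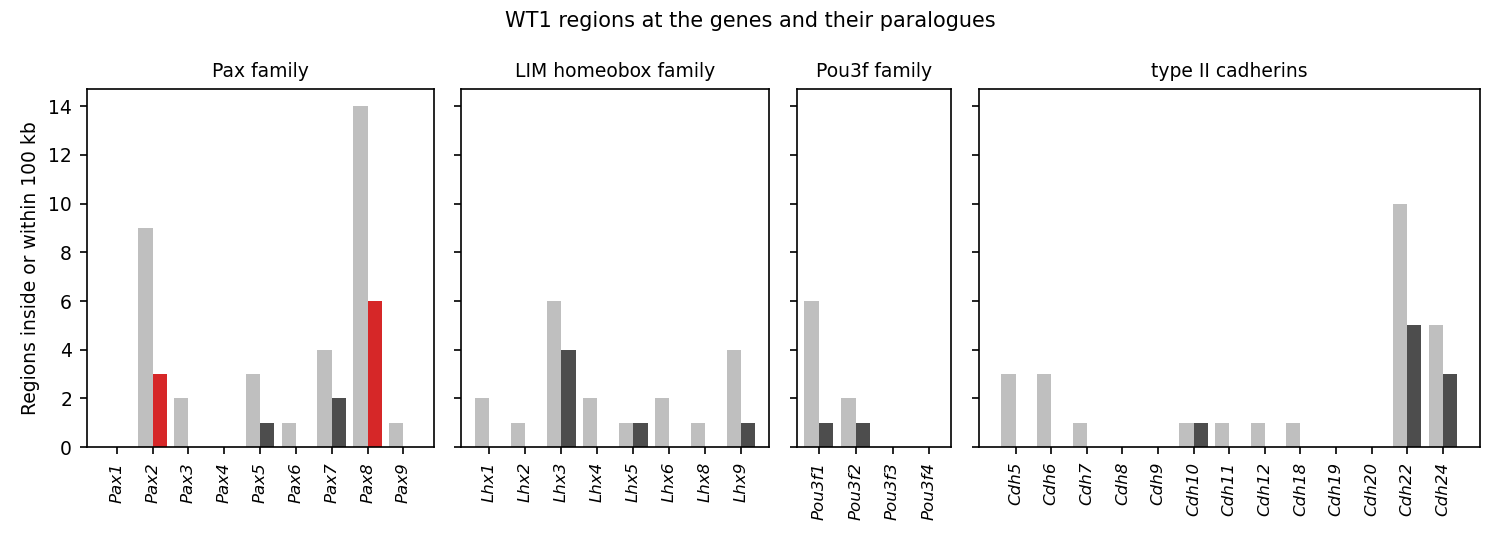
Overlap regions (light grey) and reproducible regions (dark grey, or red for the 5 genes) inside or within 100 kb of each listed gene of the 4 families. Pax8 has the most of each kind in its family, and Lhx1, Pou3f3 and Cdh6 show no reproducible region.

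Beside these 5 genes, 33 of 58 other genes of early nephron formation had a reproducible region within 100 kb (56.9%, against 38.1% of protein-coding genes). The lists were chosen with earlier results of these data known, so these shares cannot show an excess over the background. Notch genes had one in 9 of 9 cases, the best being the effectors Hey1 (IDR 1.55e-07), Hes1 (4.43e-07) and Heyl (8.29e-07) and the ligand gene Dll1 (4.57e-05). Signalling genes had one in 7 of 10, led by Bmp7 (3.43e-07), the R-spondin gene Rspo1 (6.89e-07), Tmem100 (1.03e-04) and Fgf8 (3.12e-04). Other transcription factor genes had one in 5 of 11, with Irx2 (3.72e-07), Hnf4a (2.43e-06), Wt1 itself (4.99e-06) and Osr2 (1.58e-05) the best, and Tfap2b without an overlap region. Progenitor genes had one in 5 of 9, among them Six2 (6.00e-07), Meox1 (9.12e-07), Uncx (1.18e-06) and Hoxd11 (4.77e-04). Adhesion and polarity genes had one in 5 of 10, with Pard6b (9.10e-08), Cdh4 (1.65e-05), Lama5 (0.00201) and the neighbours Cdh1 and Cdh3 through a common region (0.0111), and Cdh16 had no overlap region. Partners and targets of Pax2 and Pax8 had one in 2 of 9: Kdm6a, a histone demethylase gene (2.97e-06), and Tle4, a corepressor gene (0.00495). Gdnf and Gata3 had their best at 0.120 and 0.196, and Slc12a3 had none. The best region of Pax8 stood at a higher IDR than those of Hey1, Hes1, Heyl, Six2, Meox1, Uncx, Bmp7 and Rspo1. Its IDR was lower than those of Dll1, Hoxd11, Tmem100 and Fgf8, while that of Pax2, 0.00501, was above each of these genes.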

How the data were processed

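Deposited were the peaks of either WT1 sample and their common regions, in mm10 per the submitters' processing notes. Recovered DNA was cut with restriction enzymes and amplified for 18 PCR rounds, per the labels' protocols. The labels name no aligner or peak caller and do not say whether IgG reads were used. The deposited value per peak runs up to 0.0499 and is read as a p-value or q-value, and that of the overlap table (5.19e-08 to 0.555) as an IDR; all overlap regions equal the span of their peaks. Samples were grouped by title.

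Genes came from RefSeq (GRCm38.p6) and were assigned regions by midpoint; sharing means an overlap of 1 bp. Counts, densities and exact Clopper-Pearson 95% intervals were computed in Python 3.11.15 with pandas 2.3.3 and scipy 1.17.1, and the counting was tested on simulated intervals. No count model or significance test was applied. Promoter starts and sequences came from RefSeq. Alternatives were other IDR thresholds, windows, overlap rules and each replicate alone. The members, gene lists and alternatives were chosen with earlier results of these data known. Named genes are the 5 members, the nearest gene to each reproducible region, and from each list the 4 genes with the best region and those with none. Hif1an and Tgfbrap1, at regions beyond 100 kb, fall outside this rule and were named after their values were seen.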

Additional observations from a re-analysis of the deposited data

How the results depend on the processing

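Under the 11 alternatives, 2 of the 5 genes had a reproducible region in 8 cases and 3 at an IDR of 0.1 and with a 150 kb window, and with every overlap region the number was 4. Over all protein-coding genes the share was 38.1% at 100 kb, 26.1% at 50 kb, 13.6% at 10 kb and 7.94% inside gene bodies. It was 29.4% at an IDR of 0.01, 43.0% at 0.1, 47.0% at 150 kb and 71.6% with every overlap region. The 2 of 5 thus stood farther above this share in the smaller windows, which was not tested. Instead of 9 reproducible regions there were 5 at an IDR of 0.01, 5 with only regions held by or nearest to the member, 3 inside the gene bodies and 28 with every overlap region. Leaving out replicate 1 or replicate 2 and taking as many best peaks of the other gave 10 and 9 peaks, at 2 genes each time. Over all protein-coding genes the share was then 37.8% and 36.6%, so 2 of 5 is near the background. The shared part of replicate 1 peaks was 38.3% when 0.5 of both peaks had to overlap, and that of replicate 2 peaks was 50% among peaks better than the list median, where the whole lists gave 27.7% and 46.3%. Among replicate 1 peaks better than the list median the shared part was 56.4%, against 48.8% of the whole list. No paired analysis was possible because the results come from no test and no IgG sample was analysed here. Depth is unknown, so an absent region may be one that was not detectable. Windows cover neighbouring genes, and distance does not assign a region to a gene.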

Other observations

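Peak edges often fell on cut sites of the enzymes used to prepare the libraries, as read in the RefSeq promoter windows. In replicate 1, of 956 lower-coordinate edges in these windows 24.8% (exact Clopper-Pearson 95% interval 22.1 to 27.7) stood at the cut position of AluI (between G and C of AGCT) and 6.17% (4.73 to 7.89) at that of MseI (after the first T of TTAA), against 0.732% (0.295 to 1.5) for HaeIII (between G and C of GGCC). In replicate 2, of 1629 such edges the shares were 17.0% (15.2 to 18.9), 5.65% (4.58 to 6.88) and 0.675% (0.338 to 1.21). Over all bases of the windows the sites occurred at 0.526%, 0.324% and 0.611%. The higher-coordinate edges gave 21.1% and 16.0% for AluI, 6.38% and 5.70% for MseI, and 0.319% (0.0658 to 0.929) and 1.5% (0.965 to 2.23) for HaeIII in replicates 1 and 2, the last above its share of all bases. The outermost bases of each window were left out, among them the lower edge of a replicate 1 peak 49 bp past the third start of Pax2. In the rest of the windows of the 5 early nephron genes there were 4 peak edges, 3 at Pax8 and 1 at Cdh6, and none stood at a site. For the other peaks of these genes no sequence was used here.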
